A study of Mus musculus with 32 samples.

Results

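The comparison was that of a high-protein diet (HPD) with a normal-protein diet (NPD) in epididymal white adipose tissue (eWAT) of mice that received corticosterone (Cort), the main glucocorticoid of rodents. By their labels, 8 of the 32 libraries of the series belong to it, 4 Cort HPD and 4 Cort NPD. All came from male mice, C57BL/6 by their labels and C57BL/6J in the study's methods, 10 weeks of age in the study's account, that drank water with corticosterone for 7 days while eating a purified diet with 60% or 20% of its energy from whey protein. The HPD held less corn starch in return, with fat and total energy matched, so that more protein and less carbohydrate cannot be told apart. The other 8 eWAT libraries, 4 Veh NPD and 4 Veh HPD, came from mice on the same diets whose water held only the ethanol vehicle, and they were used to set the diet effect under Cort beside the diet effect without it. Neither the labels nor the study's methods say that samples were pooled, so each library was read as 1 mouse, and the tissue was taken whole, so that its RNA comes from adipocytes, stroma, immune cells and blood together.

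Epididymal fat stores triglyceride. When carbohydrate is plentiful, adipocytes break glucose down to pyruvate, carry it into mitochondria, export it again as citrate and build fatty acids from it, a route that insulin and dietary carbohydrate are known to raise. Glucocorticoids act through the receptor encoded by Nr3c1, alter this route in fat and are known to dampen the interferon response, in which Irf9 and its partner factors turn on a set of antiviral genes.

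The total count was 9794683 to 15906959 per Cort HPD library and 11690560 to 15245999 per Cort NPD library. Library replicate 4 of Cort HPD stood apart. The 27 marker genes of epididymis and testis summed to 16037 CPM (the count scaled to the effective library size) in it and to 0 to 13.7 CPM in the other 15 eWAT libraries. By the rule used here, a gene was set aside where this library held at least 20 counts and at least 5 times the CPM of the next highest eWAT library. This set aside 320 genes, which held 5.15% of the counts of that library and 0.0221% to 0.0441% of those of the others. The highest were the epididymal secretory genes Gpx5 (14586 CPM against at most 8.63 elsewhere), Defb48 (3810 against 2.11), Defb25 (3611 against 2.32), Lcn8 (2979) and Lcn9 (2352 against 1.58). At the edge of the rule, Skap1 (5.02 times) and Spag8 (5.05 times) were set aside, and Lcn12 (4.97 times) and Cad (4.93 times) were not. Of the 320 genes, 102 had enough counts for a test and only Tmem51, at 30.1 CPM in this library against 2.66, 3.26 and 5.72 CPM in the other Cort HPD mice, was among the genes called below. Adipocyte transcripts were high in all 8 libraries, where the 10 adipocyte markers summed to 35396 to 43435 CPM in Cort NPD and 34808 to 41167 CPM in Cort HPD. Adipoq, the gene of adiponectin, was at 3678 to 4959 CPM in Cort NPD and 4236 to 5036 CPM in Cort HPD, and Nr3c1 at 96.8 to 114 and 107 to 134 CPM.

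Of 15187 genes tested across the 16 eWAT libraries with edgeR's quasi-likelihood test, 74 (0.487%) differed between Cort HPD and Cort NPD at a Benjamini-Hochberg adjusted p-value under 0.05. On the HPD 31 were higher (0.204% of the genes tested) and 43 were lower (0.283%). In all 74, the 4 mice of one diet lay outside the range of the 4 mice of the other, as they did for 3.02% of all genes tested toward higher and 3.65% toward lower values. The genes that fell were led by the route from glucose to fatty acids (Gapdh, Pcx, Mpc1, Me1, Slc25a1, Scd1), by lipid-binding and droplet genes (Fabp5, Plin2) and by Marc1, and those that rose were led by red blood cell transcripts (Alas2, the globins) and interferon-inducible genes (Isg15, Ifi203). In a bulk tissue, fewer cells of a type and less RNA per cell cannot be told apart. The median log2 fold change of all genes was 0.02. At an unadjusted p under 0.05, without correction, 788 genes were higher and 702 lower. Of the 788, 66 were genes set aside as high in Cort HPD 4 alone. Scaled by library totals alone the split was 39 higher and 34 lower, of 73. The count of called genes rested on single libraries: it was 26 without Cort NPD 1, 30 without Cort HPD 3, 41 without Cort HPD 4, 42 without Cort NPD 4, 47 without Cort NPD 3 and 124 without Veh HPD 4. The fit, with its estimate of the spread, takes in all 16 libraries, and the cause of these changes was not tested. Without Cort HPD 4, 38 of the 74 were still called (20 of those higher and 18 of those lower), and 74 of 74 kept their sign. In each of the 8 fits that left out 1 Cort library, 23 of the 74 were called.

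**Figure D1:**
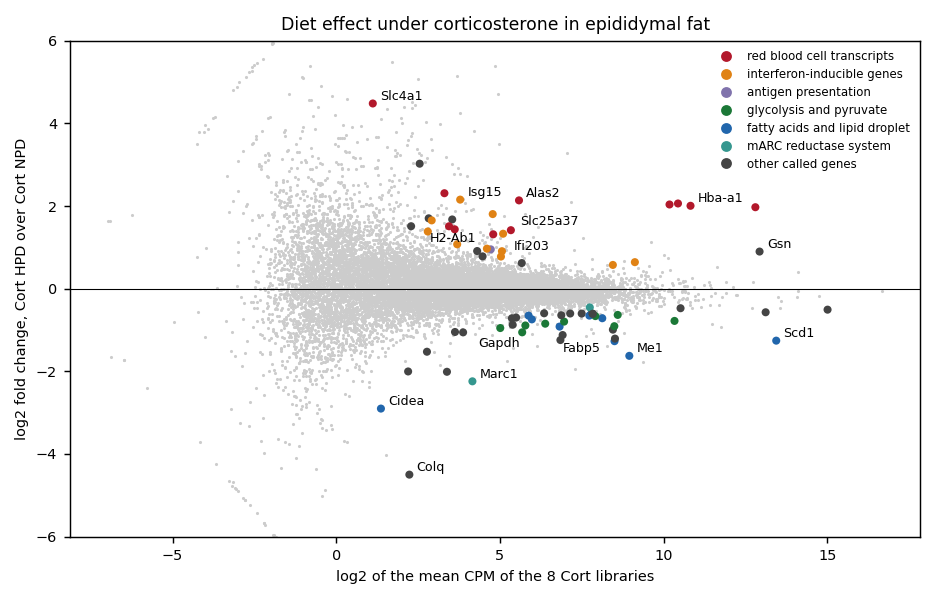
Log2 fold change of Cort HPD over Cort NPD (vertical axis) against the log2 of the mean CPM of the 8 Cort libraries (horizontal axis), 1 point per gene tested. Coloured points are the 74 called genes by group, grey points the others. Grey points spread widest at low CPM, and 35 genes lie beyond the axis limits of 6.

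Of the glycolysis genes, 4 fell. Gapdh (ENSMUSG00000057666, chromosome 6 from 125161715 to 125166467, GRCm38) encodes glyceraldehyde-3-phosphate dehydrogenase. It was at 72.9, 67.2, 63.6 and 81.5 CPM in the Cort NPD mice and at 37.1, 45.3, 37.6 and 33.9 CPM in the Cort HPD mice. The highest Cort HPD mouse was thus below the lowest Cort NPD mouse, and the log2 fold change was -0.89 (SE 0.14, edgeR adjusted p = 0.002). Pfkl, the liver-type phosphofructokinase, was at 96.0 to 114 CPM in Cort NPD and 47.6 to 66.3 CPM in Cort HPD (log2 fold change -0.85, SE 0.15, edgeR adjusted p = 0.00412). Aldoa, the aldolase of muscle and fat, was at 1471 to 1773 against 901 to 1036 CPM, and Pkm, pyruvate kinase, at 271 to 326 against 183 to 195 CPM. Of the 24 genes tested in the glycolysis and glucose uptake list these 4 were called, all lower, 16 of the 24 had a negative fold change and the median was -0.29, and all 4 were called without Cort HPD 4. Ldha, lactate dehydrogenase, had the next smallest p of the list, at 505 to 592 CPM in Cort NPD and 343 to 431 CPM in Cort HPD (edgeR adjusted p = 0.129). Gapdh has many processed pseudogenes, between which and the gene reads may be divided.

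Genes that carry pyruvate into the mitochondrion and use it there fell as well. Pcx (ENSMUSG00000024892, chromosome 19 from 4510472 to 4621752) encodes pyruvate carboxylase, which makes the oxaloacetate for citrate. Its level was 516, 447, 464 and 456 CPM in Cort NPD and 251, 291, 222 and 239 CPM in Cort HPD, a log2 fold change of -0.91 (SE 0.15, edgeR adjusted p = 0.00296). Mpc1 and Mpc2 encode the subunits of the mitochondrial pyruvate carrier. Mpc1 was at 81.9, 71.0, 57.5 and 66.7 CPM in Cort NPD and 26.1, 40.2, 23.4 and 43.6 CPM in Cort HPD (log2 fold change -1.06, SE 0.18, edgeR adjusted p = 0.00352), and Mpc2 at 432 to 505 against 276 to 330 CPM. Both subunits were thus lower in every Cort HPD mouse than in every Cort NPD mouse. Dlat, a subunit of pyruvate dehydrogenase, was at 145 to 169 against 78.9 to 106 CPM, and Pdk1, a kinase that inhibits that complex, at 38.0 to 47.4 against 17.1 to 26.5 CPM. These 5 of the 22 genes tested in the pentose phosphate and pyruvate list were called, all lower, with 17 of 22 negative and a median of -0.31. Without Cort HPD 4, 3 of the 5 were called, and the edgeR adjusted p was 0.0828 for Mpc2 and 0.0695 for Dlat.

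Fatty acid synthesis had the lowest median of the 28 pathway lists, -0.77 over 21 genes tested, with 3 called lower and 0 higher and 18 of 21 negative. Without Cort HPD 4 the median was -0.66 and 0 were called: the edgeR adjusted p was 0.0558 for Me1, 0.0686 for Slc25a1 and 0.103 for Scd1. Me1 (ENSMUSG00000032418, chromosome 9 from 86581371 to 86695953), malic enzyme, supplies NADPH for the synthesis. It was at 806, 703, 569 and 919 CPM in Cort NPD and at 208, 296, 208 and 257 CPM in Cort HPD, 3.09 times higher on the NPD by the fit (log2 fold change -1.63, SE 0.27, edgeR adjusted p = 0.0128). Slc25a1 (ENSMUSG00000003528, chromosome 16 from 17925223 to 17928219), the mitochondrial citrate exporter, was at 620, 453, 468 and 508 CPM in Cort NPD and 217, 241, 177 and 213 CPM in Cort HPD (log2 fold change -1.27, SE 0.23, edgeR adjusted p = 0.0143). Scd1, stearoyl-CoA desaturase, was among the most abundant transcripts, and of the 3 called genes of the list it varied most between the Cort HPD mice. Its level was 19547, 13408, 13758 and 16023 CPM in Cort NPD and 4496, 10899, 4575 and 6246 CPM in Cort HPD (log2 fold change -1.26, SE 0.26, edgeR adjusted p = 0.0411), and leaving out the Cort libraries singly, it was called in 1 of 8 fits. Acss2, the cytosolic acetyl-CoA synthetase, lay just outside the threshold at 191 to 311 against 51.3 to 97.2 CPM (edgeR adjusted p = 0.0507). Scd2, a related desaturase, was at 316 to 616 against 110 to 234 CPM (edgeR adjusted p = 0.162). Acly, the ATP citrate lyase that cleaves the exported citrate, named here after its values were seen, was at 671 to 1447 CPM in Cort NPD and 173 to 396 CPM in Cort HPD, without overlap, with an SE of 0.54 on its log2 fold change of -1.77 and an edgeR adjusted p of 0.27. Tecr, a fatty acid elongation enzyme, and Echdc1, an enzyme that proofreads fatty acid synthesis, were called outside the list, at 231 to 315 against 152 to 179 CPM and 69.3 to 89.4 against 34.7 to 59.2 CPM.

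Promoter sequence was looked at for letters that factors of these routes are known to bind. RefSeq start sites on GRCm38.p6 were found for 56 of the 74 called genes, and the window from 250 bases before to 50 bases after the start was searched on both strands for 5 motifs. The E-box CACGTG, which is its own reverse complement and is bound by carbohydrate and sterol response factors among others, stood in the windows of 5 of the 32 lower genes with an entry (Ctsd, Pcx, Plin2, Slc25a1 and Sycp3) and of 0 of the 24 higher genes, against 8.09% of 27025 genes in the table. The stretches before the starts of Slc25a1 (chr16:17928320-17928469, minus strand) and Pcx (chr19:4510222-4510371, plus strand, 1 of 2 starts) are shown from 250 to 101 bases upstream, with the E-box in capitals, because they are the 2 synthesis route genes that hold it well upstream.
Slc25a1: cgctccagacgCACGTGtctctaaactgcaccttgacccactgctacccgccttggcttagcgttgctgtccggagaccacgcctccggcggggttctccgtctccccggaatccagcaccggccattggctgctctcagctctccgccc
Pcx: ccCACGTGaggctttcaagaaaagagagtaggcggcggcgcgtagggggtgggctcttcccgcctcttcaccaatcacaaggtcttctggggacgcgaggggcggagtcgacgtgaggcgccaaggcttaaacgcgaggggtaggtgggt
The CCAAT box stood in 18 of 24 higher and 17 of 32 lower genes, against 41.1% of all genes, and ATCACC, the core of sterol response elements, in 4 of 24 and 5 of 32, against 11.3%. A match in these windows is a description of the letters and not a bound site.

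Fatty acid handling and the lipid droplet held 4 further lower genes. Fabp5 (ENSMUSG00000027533, chromosome 3 from 10012548 to 10016607), a fatty acid binding protein, was at 158, 135, 137 and 163 CPM in Cort NPD and 83.2, 83.9, 82.0 and 64.4 CPM in Cort HPD (log2 fold change -0.92, SE 0.14, edgeR adjusted p = 0.00133). The Cort HPD mice were close to each other apart from replicate 4, without which the adjusted p was 0.00541. Plin2, which coats lipid droplets, was at 322 to 386 against 190 to 222 CPM (log2 fold change -0.72, SE 0.12, edgeR adjusted p = 0.00349). Slc25a20, the carrier of acylcarnitines into mitochondria, was at 66.4 to 84.2 against 44.1 to 46.9 CPM, with an edgeR adjusted p of 0.0671 without Cort HPD 4. It was the only called gene of the 33 tested for fatty acid oxidation, whose median was -0.04. At an unadjusted p under 0.05, 8 of these 33 were lower and 0 higher, against 702 and 788 of 15187 over all genes tested. Cidea, a droplet fusion gene also high in brown fat, was at 6.38, 3.85, 6.39 and 1.51 CPM in Cort NPD and at 0, 1.37, 0.731 and 0.386 CPM in Cort HPD, a level of few counts (log2 fold change -2.90, SE 0.62, edgeR adjusted p = 0.0236, limma voom adjusted p = 0.169). The major fat cell transcript Fabp4, by contrast, was at 15292 to 19548 and 15357 to 19390 CPM, and of the 10 adipocyte markers 0 were called.

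Triglyceride and cholesterol synthesis had negative medians without a called gene. The median was -0.37 over 20 genes tested for triglyceride synthesis, with 14 negative and 8 lower at an unadjusted p under 0.05, and -0.44 over 26 genes tested for cholesterol synthesis, with 22 negative and 11 lower at that p. Over all genes tested 702 of 15187 were lower at that p. Nsdhl was at 70.4 to 105 against 43.7 to 58.9 CPM, Cyp51 at 67.0 to 112 against 29.6 to 50.4 CPM and Acat2 at 118 to 199 against 80.0 to 102 CPM, with edgeR adjusted p-values of 0.0627, 0.0728 and 0.0736. These are enzymes of sterol synthesis, and in each of the 3 the diets did not overlap. Of 38 respiratory chain genes 34 were negative, with a median of -0.16 and 0 called.

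Marc1 (ENSMUSG00000026621, chromosome 1 from 184786767 to 184811313) had the smallest p of all genes. It encodes an enzyme of the mitochondrial outer membrane, mARC1, that reduces N-hydroxylated compounds with electrons passed on by cytochrome b5 (Cyb5b) and its reductase (Cyb5r3), and it is known as a gene of hepatic fat content in people. Its level was 24.8, 32.6, 18.2 and 42.7 CPM in Cort NPD and 5.65, 5.48, 6.25 and 7.47 CPM in Cort HPD, a log2 fold change of -2.24 (SE 0.26, edgeR adjusted p = 4.12e-05). The Cort NPD mice spread widely, and the lowest of them was still above the highest Cort HPD mouse. Cyb5r3 was at 227 to 268 against 174 to 191 CPM (log2 fold change -0.45, SE 0.10, edgeR adjusted p = 0.042), a call made in 0 of the 8 fits that left out a Cort library. Cyb5b was at 270 to 386 against 229 to 280 CPM (edgeR adjusted p = 0.307), and the 12 genes tested of the amidoxime reduction list had a median of -0.08.

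**Figure D2:**
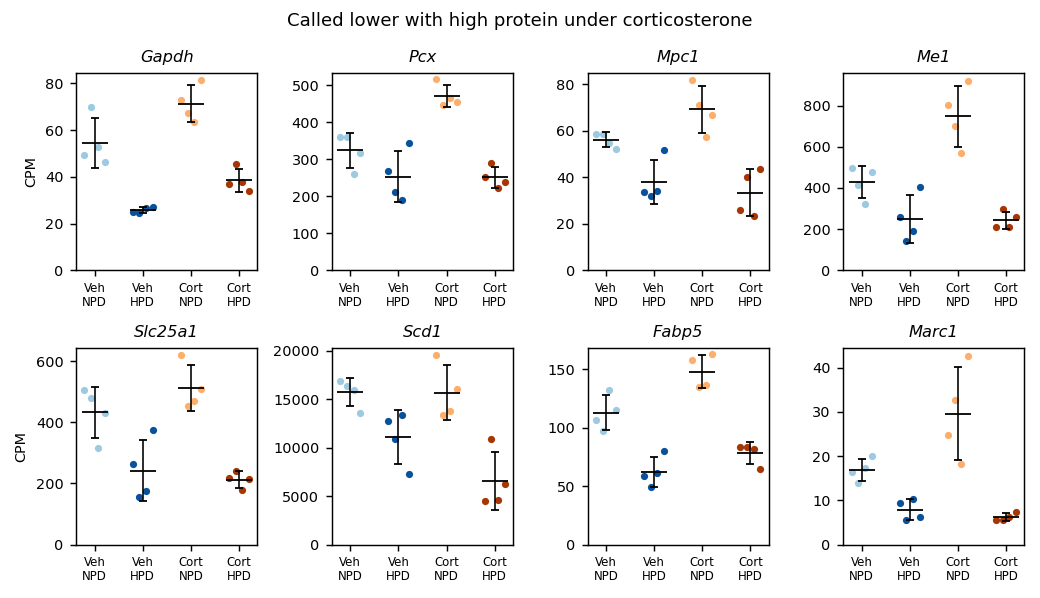
CPM of 8 genes called lower, 1 panel per gene with its own axis from 0, in the 16 eWAT mice by treatment and diet. Points are mice, and the bar and whiskers are the mean and SD of 4 mice. In each panel the 4 Cort HPD mice lie below the 4 Cort NPD mice.

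The other lower genes were of mixed kinds. The mitochondrial ribosomal RNAs mt-Rnr1 (8958 to 11626 against 6155 to 7751 CPM) and mt-Rnr2 (35761 to 40935 against 22999 to 30319 CPM) were called, and the share of counts from the mitochondrial genome was at least 11.4% in each Cort NPD library and 9.16% to 10.7% in Cort HPD. The 8 mitochondrial protein genes tested were all negative with a median of -0.29 and 0 called, and the libraries prime on poly(A) tails, which ribosomal RNAs carry to a variable degree. Aldh1a7, an aldehyde dehydrogenase with a close paralog, was at 122 to 210 against 53.2 to 93.9 CPM. Kcnj15, a potassium channel, was at 123 to 207 against 69.0 to 91.6 CPM (log2 fold change -1.12, SE 0.17, edgeR adjusted p = 0.002). Colq, the collagen tail of acetylcholinesterase, had the greatest fall: 8.69, 4.43, 8.52 and 14.5 CPM in Cort NPD and 0.242, 0, 0.864 and 0.386 CPM in Cort HPD (log2 fold change -4.50, SE 0.80, edgeR adjusted p = 0.00412). In the Veh mice it was at 0 to 0.827 CPM. Ncan, a proteoglycan, was at 12.1 to 23.0 against 2.66 to 6.31 CPM (log2 fold change -2.01, SE 0.36, edgeR adjusted p = 0.00412). Further called genes included Lrrc17, Syn2, Rtn4, Tmem135, Arxes1, H2-Q10, Lrpap1, Sycp3, Rb1, Cib2, Adap1, Ctsd, Tmem120b, Rbm28 and Impdh1. Their log2 fold changes were between -0.47 for Ctsd and -1.53 for H2-Q10. Sycp3 overlaps the more abundant Chpt1, and Syn2 the more abundant Timp4 (1030 CPM on average in the Cort mice), each on the other strand, and whether counting used the strand is not stated. Timp4 was at 955 to 1137 CPM in Cort NPD and 921 to 1099 CPM in Cort HPD.

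Red blood cell transcripts made up 11 of the 31 higher genes, of which 10 were in the fixed lists. Tent5c, put with them after its values were seen, was in no list. Its level was 3.65 to 7.95 CPM in Cort NPD and 9.76 to 24.1 CPM in Cort HPD. Ube2l6, counted among the 11 as a red cell marker, is also known as an interferon-inducible gene. It averaged 12.8 CPM in Veh NPD, 12.2 in Veh HPD, 5.67 in Cort NPD and 16.1 in Cort HPD. The sum of the 12 red cell markers was 3769, 6647, 4200 and 4511 CPM in Cort NPD and 12872, 26116, 15394 and 20442 CPM in Cort HPD. Every Cort HPD mouse thus lay above every other eWAT mouse, since the sums were 4037 to 7282 CPM in Veh NPD and 5402 to 9445 CPM in Veh HPD. Of the 12 markers 9 were called, all higher, among them Hba-a1, Hba-a2, Hbb-bs, Hbb-bt, Alas2, Bpgm, Slc4a1 and Ube2l6. Alas2 (ENSMUSG00000025270, chromosome X from 150547375 to 150570638), the heme synthesis enzyme of red cell precursors, was at 16.4, 19.6, 16.2 and 18.9 CPM in Cort NPD and 58.8, 112, 60.8 and 81.0 CPM in Cort HPD (log2 fold change 2.14, SE 0.26, edgeR adjusted p = 9.04e-04). Hba-a1, an alpha-globin gene, was at 553, 995, 629 and 713 CPM against 1988, 3934, 2446 and 3230 CPM (log2 fold change 2.01, SE 0.28, edgeR adjusted p = 0.00352). Hba-a1 and Hba-a2, and likewise Hbb-bs and Hbb-bt, are near-identical copies between which reads may be divided, and their log2 fold changes were 1.97 to 2.06.

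Slc25a37, the mitochondrial iron importer mitoferrin used in heme synthesis, was called outside the marker list, at 20.4, 26.5, 18.9 and 22.3 CPM in Cort NPD and 37.0, 61.9, 65.7 and 70.3 CPM in Cort HPD (log2 fold change 1.41, SE 0.18, edgeR adjusted p = 1.20e-04). It was the only called gene of the 22 tested for iron and heme, whose median was -0.02. Set against globin, the diets overlapped for Alas2 and not for Bpgm. Alas2 was at 3.02 to 4.56 CPM per 1000 CPM of globin in Cort NPD and 4.02 to 4.66 in Cort HPD, and alpha-globin over beta-globin was 0.317 to 0.381 and 0.338 to 0.360. Bpgm, a red cell enzyme that sets oxygen affinity, was at 2.68 to 4.30 and 1.97 to 2.49 CPM per 1000 CPM of globin, so that it rose less than the globins did in these mice. Whether more blood was left in the tissue, or blood held more young red cells, was not tested. The motif AGATAA, which GATA factors of the red cell lineage bind, stood in the windows of 3 of the 24 higher genes with an entry (Alas2, Hbb-bs and Irf9). It stood in 2 of the 32 lower genes (Kcnj15 and Tmem120b), against 12.7% of all genes. Of the 8 red cell genes with a promoter entry, 2 held the motif, Alas2 and Hbb-bs. The 150 bases before the Alas2 start (chrX:150547267-150547416, plus strand) are shown with it in capitals as TTATCT, its form on the other strand, 86 bases upstream.
Alas2: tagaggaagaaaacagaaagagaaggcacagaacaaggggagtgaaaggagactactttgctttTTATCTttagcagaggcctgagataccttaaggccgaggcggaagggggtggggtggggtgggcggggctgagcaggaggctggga

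Interferon-inducible genes, with Ube2l6 left among the red cell transcripts, made up another 11: Ifi203, Isg15, Irf9, Ly6e, Phf11d, Rsad2, Gbp7, Ddx60, Mndal, Ifitm3 and Apobec3. Isg15 (ENSMUSG00000035692, chromosome 4 from 156199424 to 156200818), a ubiquitin-like protein, was at 5.91, 2.98, 7.41 and 3.92 CPM in Cort NPD and 14.1, 23.9, 25.0 and 27.2 CPM in Cort HPD (log2 fold change 2.15, SE 0.36, edgeR adjusted p = 0.00464). Ifi203 (ENSMUSG00000039997, chromosome 1 from 173920407 to 173942672), of the DNA-sensing p200 family, was at 21.5, 19.3, 17.2 and 19.9 CPM against 55.4, 54.0, 47.7 and 38.9 CPM (log2 fold change 1.33, SE 0.21, edgeR adjusted p = 0.00267). Irf9, the DNA-binding part of the interferon-activated factor, was at 13.2, 22.8, 17.5 and 12.3 CPM against 30.9, 34.6, 33.1 and 30.1 CPM (log2 fold change 0.97, SE 0.20, edgeR adjusted p = 0.0191). In all 3, each Cort HPD mouse was above each Cort NPD mouse. Rsad2, the antiviral enzyme viperin, was at 8.56 to 17.0 against 27.0 to 57.1 CPM, the guanylate-binding protein Gbp7 at 20.4 to 27.2 against 28.3 to 49.3 CPM and the membrane protein Ifitm3 at 256 to 306 against 360 to 449 CPM.

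In the interferon list 5 of the 32 genes tested were called, all higher, 17 were higher and 0 lower at an unadjusted p under 0.05, 30 of 32 were positive and the median was 0.76, the highest of the 28 pathway lists. Ifi44 had a fold change as great as that of Isg15 but more spread, at 4.28 to 6.5 against 17.8 to 35.5 CPM (log2 fold change 2.16, SE 0.47, edgeR adjusted p = 0.0701). Ifi203 and Mndal lie in a cluster of related genes and overlap, so reads may be divided between them. The interferon calls depended on the tool: limma voom called 4 of the 11 (Ifi203, Irf9, Ly6e and Ifitm3) and gave Isg15 an adjusted p of 0.106, and 8 of the 11 were called without Cort HPD 4.

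The letters of the interferon-stimulated response element, searched as GAAANNGAAA on both strands, stood in the promoter windows of 8 of these 11 genes, of 10 with an entry (Isg15, Rsad2, Gbp7, Ddx60, Ifi203, Mndal, Ifitm3 and Apobec3), of 0 of the other 14 higher genes with an entry and of 1 of the 32 lower genes (Rbm28), against 3.99% of 27025 genes. The 150 bases before the start are shown for Isg15 (chr4:156200819-156200968, minus strand), Rsad2 (chr12:26456453-26456602, minus strand) and Gbp7 (chr3:142530186-142530335, plus strand), with the matching bases in capitals, because they show 3 overlapping matches in Isg15, 78 to 66 bases upstream, against 1 in each of the others, where it reads on the opposite strand at 120 and 53 bases upstream.
Isg15: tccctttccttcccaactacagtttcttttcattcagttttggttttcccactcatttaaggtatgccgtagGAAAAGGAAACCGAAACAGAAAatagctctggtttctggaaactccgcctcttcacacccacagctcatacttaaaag
Rsad2: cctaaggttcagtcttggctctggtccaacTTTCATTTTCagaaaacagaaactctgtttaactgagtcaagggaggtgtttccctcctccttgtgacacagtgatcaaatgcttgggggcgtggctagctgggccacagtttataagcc
Gbp7: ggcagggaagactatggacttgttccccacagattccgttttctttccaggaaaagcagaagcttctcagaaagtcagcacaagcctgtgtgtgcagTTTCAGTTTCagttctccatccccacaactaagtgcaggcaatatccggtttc

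**Figure D3:**
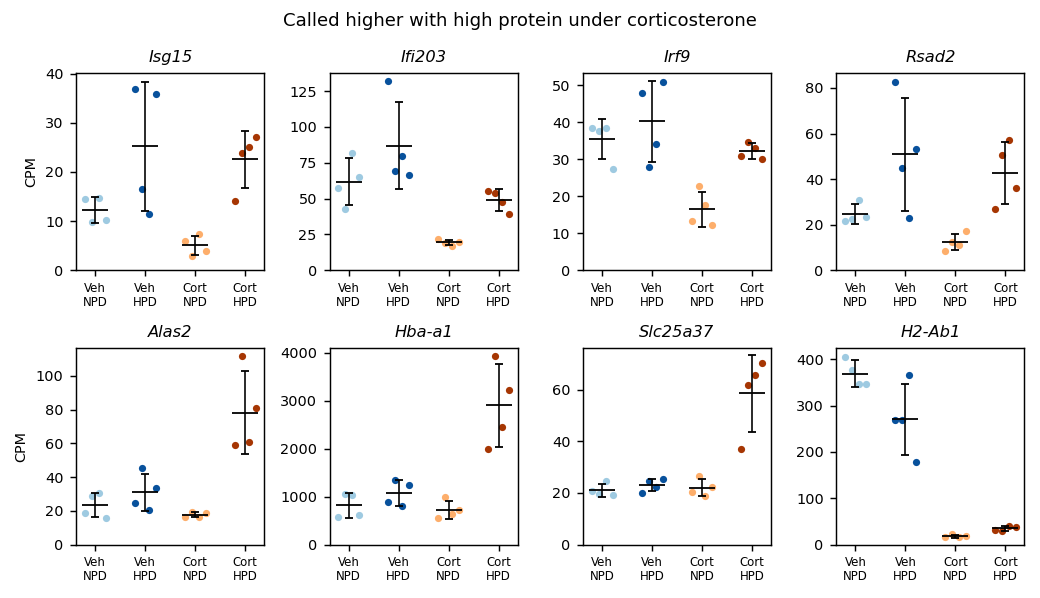
CPM of 8 genes called higher, 1 panel per gene with its own axis from 0, in the 16 eWAT mice by treatment and diet. Points are mice, and the bar and whiskers are the mean and SD of 4 mice. The interferon genes are lowest in Cort NPD, the red cell genes are high in Cort HPD, and H2-Ab1 is far lower in both Cort groups than in both Veh groups.

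H2-Ab1 (ENSMUSG00000073421, chromosome 17 from 34257689 to 34269419), a chain of the MHC class II molecule that presents antigen, was at 15.8, 21.8, 15.9 and 18.5 CPM in Cort NPD and 31.8, 30.2, 39.4 and 37.6 CPM in Cort HPD (log2 fold change 0.95, SE 0.16, edgeR adjusted p = 0.00352, limma voom adjusted p = 0.0538). It was the only called gene of the 17 tested in the MHC list, of which 16 were positive, 8 were higher at an unadjusted p under 0.05 and the median was 0.63. The MHC class I gene H2-Q10, which that list does not hold, was called lower. H2-Q10 was at 7.12 to 14.1 CPM in Cort NPD and 1.93 to 5.90 CPM in Cort HPD (log2 fold change -1.53, SE 0.32, edgeR adjusted p = 0.0208, limma voom adjusted p = 0.107). H2-Aa, the partner chain of H2-Ab1, was at 15.2 to 31.4 against 34.0 to 58.7 CPM (edgeR adjusted p = 0.0514), and the immunoproteasome subunit Psmb8 at 8.12 to 16.5 against 19.0 to 24.2 CPM (edgeR adjusted p = 0.11). Cd74, the invariant chain, overlapped between the diets at 12.1 to 25.0 and 22.8 to 68.2 CPM. Of 21 macrophage and dendritic cell markers 0 were called, and their sum was 1258 to 1579 CPM in Cort NPD and 1380 to 1692 CPM in Cort HPD. Csf1r, the receptor that macrophages need, had the smallest p among them, at 90.8 to 115 against 125 to 180 CPM (edgeR adjusted p = 0.0663, and 0.0346 without Cort HPD 4). The 22 lymphocyte markers summed to 162 to 358 CPM in Cort NPD and 168 to 311 CPM in Cort HPD. Without Cort HPD 4, where the set-aside gene Klrb1c was at 94.8 CPM, the Cort HPD sums were 168 to 255 CPM.

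Of the remaining 8 higher genes, Gsn (ENSMUSG00000026879, chromosome 2 from 35256380 to 35307892), the actin-severing protein gelsolin, was the most abundant, at 5232, 6519, 5589 and 4497 CPM in Cort NPD and 10699, 9154, 11124 and 9695 CPM in Cort HPD (log2 fold change 0.90, SE 0.14, edgeR adjusted p = 0.00133). It is among 15 markers of stromal progenitors, of which the other 14 summed to 499 to 609 CPM in Cort NPD and 522 to 596 CPM in Cort HPD. Mmp9, a secreted protease, was at 2.58 to 4.07 against 8.84 to 12.4 CPM (log2 fold change 1.70, SE 0.29, edgeR adjusted p = 0.0032, limma voom adjusted p = 0.106), while the 12 neutrophil markers summed to 9.86 to 21.9 and 7.53 to 14.7 CPM. Cd24a, a surface protein of immature blood and epithelial cells, was at 3.71 to 8.58 against 11.4 to 29.0 CPM, highest in Cort HPD 4, and its adjusted p without that library was 0.0525. Prdm16, a factor of beige and brown adipocytes, was at 1.89 to 3.47 against 5.16 to 9.92 CPM (edgeR adjusted p = 0.0355, limma voom adjusted p = 0.16, and 0.0987 by edgeR without Cort HPD 4), while the 9 brown adipocyte markers, with Cidea called lower among them, summed to 25.8 to 36.4 and 19.2 to 27.7 CPM. Junb, an AP-1 factor that overlaps Prdx2 on the other strand, was at 12.3 to 15.1 against 23.7 to 27.7 CPM, and Triobp, Zfp652 and Tmem51 complete the group. Of these 8 genes limma voom called 4.

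In the lists of amino acid catabolism, amino acid transporters, serine synthesis with the ATF4 response, and glucocorticoid receptor targets, 0 genes were called. Among 47 genes tested for amino acid catabolism the median was -0.02, with 2 higher and 3 lower at an unadjusted p under 0.05, and Cbs, of the route from homocysteine to cysteine, had the smallest p at 7.21 to 11.9 against 17.0 to 27.8 CPM (edgeR adjusted p = 0.0616). The 27 amino acid transporters had a median of 0.09, with 5 higher and 2 lower at an unadjusted p under 0.05. Among the 5 were Slc7a5 and Slc1a1, both set aside as high in Cort HPD 4 alone. Slc3a2, the heavy chain of the LAT transporters, was at 301 to 373 against 386 to 667 CPM (edgeR adjusted p = 0.0901). The 23 genes tested of serine synthesis and the ATF4 response, which amino acid shortage raises, had a median of 0.07. At an unadjusted p under 0.05, 4 of them were higher and 0 lower, against 788 and 702 of 15187 over all genes tested. Atf4 itself was at 67.2 to 86.5 against 92.4 to 139 CPM (edgeR adjusted p = 0.309). The 21 glucocorticoid receptor targets had a median of -0.17, with 14 negative. That list does not cover every gene whose level differed between Veh and Cort mice, a contrast not tested here. Outside it, the called gene Colq averaged 0.424 CPM in Veh NPD, 9.04 in Cort NPD and 0.373 in Cort HPD. The called gene H2-Ab1 averaged 369, 18.0 and 34.8 CPM in the same groups. Among fat cell hormones Lep was at 1624 to 2963 and 1610 to 2317 CPM, Fgf21 at 0 to 0.356 and 0 to 1.05 CPM, too few counts for a test, and Gcgr, the glucagon receptor, at 0.218 to 0.868 and 0.0644 to 1.29 CPM. Pck1, which makes glycerol for triglyceride in fat, was at 974 to 1880 and 1174 to 2105 CPM. In 18 of the 28 pathway lists 0 genes were called. Among markers of further cell types, 0 genes were called for endothelium (sums of 808 to 883 and 690 to 893 CPM), mesothelium (163 to 243 and 164 to 236), skeletal muscle (74.6 to 105 and 66.4 to 81.8) and hepatocytes (2085 to 3999 and 2486 to 2967). The exocrine pancreas markers, a low sum, did not overlap between the diets, at 17.1 to 23.6 CPM in Cort NPD and 6.45 to 15.7 CPM in Cort HPD, with 0 of the 2 genes tested called, and their part in the results was not tested.

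**Figure D4:**
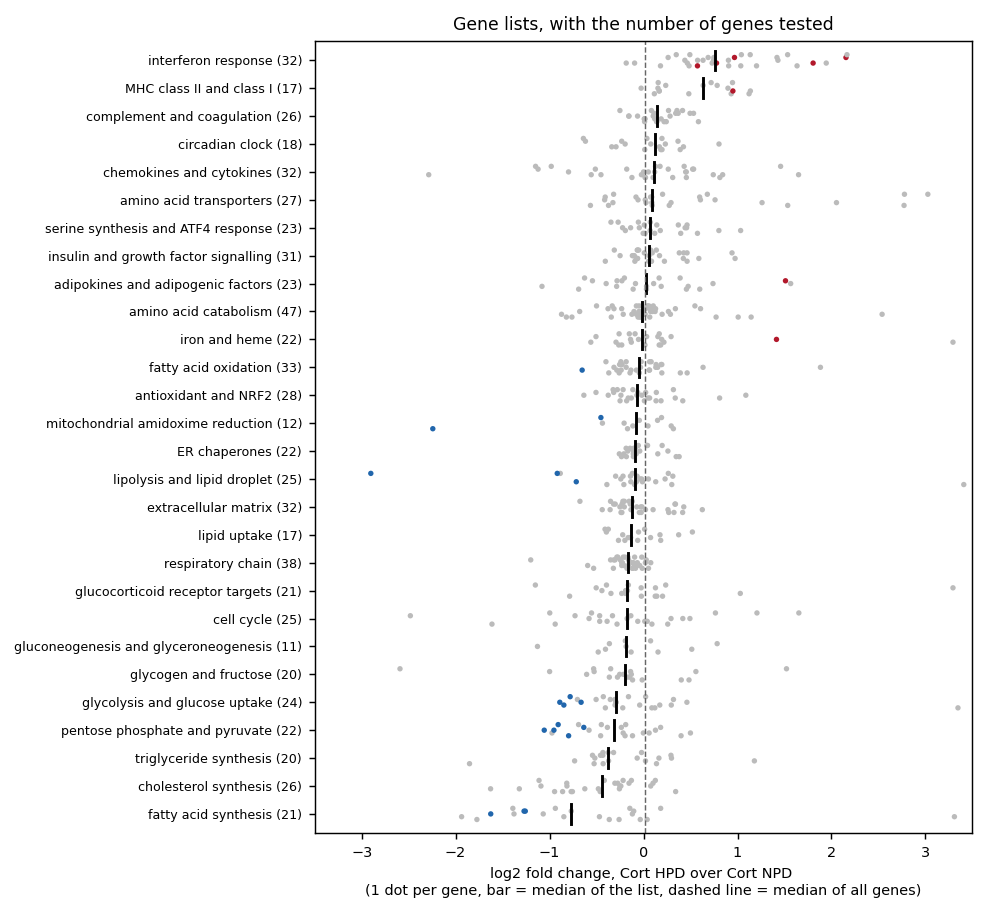
Log2 fold change of Cort HPD over Cort NPD (horizontal axis) for the genes tested of 28 pathway lists, sorted by their medians (black bars). Red and blue dots are genes called higher and lower, grey dots are other genes, and the dashed line is the median of all genes, 0.02. Fatty acid synthesis has the lowest median, -0.77, and the interferon response the highest, 0.76.

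In the Veh mice, other animals on the same diets, 9 genes (0.0593%) differed between HPD and NPD, of which Gapdh and Fabp5 are among the 43 lower genes. The lower genes had the same sign in 42 of 43 cases in Veh, and 30 of 43 were lower there at an unadjusted p under 0.05, against 4.35% of all genes. The exception was Syn2. Their median log2 fold change was -0.38 under Veh and -0.85 under Cort, the latter being the contrast that chose them. Gapdh was at 49.5, 70.1, 52.6 and 46.2 CPM in Veh NPD and 24.9, 24.4, 26.5 and 27.1 CPM in Veh HPD (log2 fold change -1.08, SE 0.14, edgeR adjusted p = 2.89e-04). Fabp5 was at 107, 97.5, 133 and 115 against 58.6, 49.7, 61.0 and 79.8 CPM (log2 fold change -0.86, SE 0.14, edgeR adjusted p = 0.00544). Marc1 was at 16.3, 13.8, 17.3 and 20.0 CPM in Veh NPD and 9.39, 5.48, 10.3 and 6.29 CPM in Veh HPD, without overlap (log2 fold change -1.10, SE 0.25, edgeR adjusted p = 0.0797). Me1 overlapped there, at 321 to 497 against 143 to 406 CPM. In 38 of the 43, Cort NPD had the highest mean of the 4 groups. Their choice as lower in Cort HPD than in Cort NPD favours this, and the share over all genes was not counted. Me1, for example, was at 428 ± 79.1 in Veh NPD, 250 ± 115 in Veh HPD, 749 ± 149 in Cort NPD and 243 ± 42.5 CPM in Cort HPD (SD, n = 4).

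The higher genes had the same sign in Veh in 26 of 31 cases, and 7 of 31 were higher at an unadjusted p under 0.05, against 3.67% of all genes, with a median of 0.39 under Veh and 1.44 under Cort. The difference between the shares of higher and lower genes was not tested. Interferon genes gave 4 of the 7. Isg15 was at 14.5, 9.83, 14.7 and 10.3 CPM in Veh NPD and 36.9, 16.6, 11.4 and 35.9 CPM in Veh HPD, with 2 of the Veh HPD mice near the Veh NPD range (log2 fold change 1.03, SE 0.34, edgeR adjusted p = 0.348). Slc25a37 was at 19.1 to 24.7 in Veh NPD and 19.9 to 25.2 CPM in Veh HPD. In 27 of the 31, Cort NPD had the lowest of the 4 group means. Their choice as higher in Cort HPD than in Cort NPD favours this, and the share over all genes was not counted. Ifi203, for example, was at 61.8 ± 16.4 in Veh NPD, 86.9 ± 30.5 in Veh HPD, 19.5 ± 1.79 in Cort NPD and 49.0 ± 7.52 CPM in Cort HPD (SD, n = 4).

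**Figure D5:**
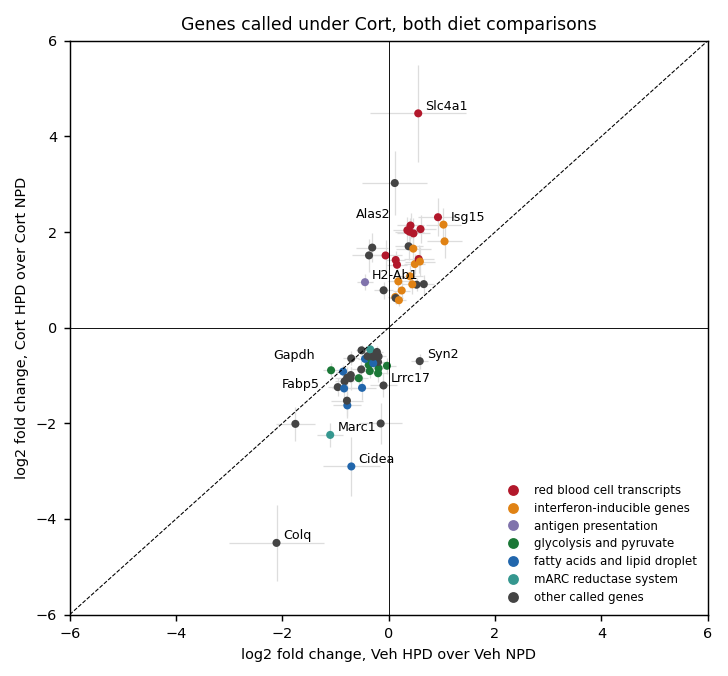
Log2 fold change of HPD over NPD in the Cort mice (vertical axis) against that in the Veh mice (horizontal axis) for the 74 genes called under Cort, with SE as grey lines. The dashed line marks equal values. Nearly all lower genes lie left of 0 on the Veh axis, with Syn2 to the right, and 26 of the 31 higher genes lie to the right of 0.

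The diet effect itself was compared between Cort and Veh with the interaction term, which called 2 genes (0.0132%), both among the 74. H2-Ab1 differed by 1.40 on the log2 scale (SE 0.23, edgeR adjusted p = 0.0237): it was higher on the HPD under Cort, and at 406, 377, 346 and 347 CPM in Veh NPD and 268, 269, 367 and 178 CPM in Veh HPD (log2 fold change -0.45, SE 0.16, edgeR adjusted p = 0.384). Syn2, named for synapsin 2, differed by -1.28 (SE 0.22, edgeR adjusted p = 0.0335), at 49.2 to 63.3 CPM in Cort NPD and 31.2 to 38.0 CPM in Cort HPD but 9.88 to 12.7 CPM in Veh NPD and 13.4 to 20.7 CPM in Veh HPD. Of the 16 fits that each left out 1 eWAT library, the interaction was called in 8 for H2-Ab1 and in 4 for Syn2, with adjusted p-values up to 0.121 and 0.185. By limma voom both had an adjusted p of 0.139, and with library totals 0.0765 and 0.091, so neither was called. For the other 72 genes the interaction missed the threshold, which does not show that diet acted alike with and without Cort.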

How the data were processed

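Gene counts of 3′ tag libraries (QuantSeq, from RNeasy-extracted RNA) were analysed for 16 eWAT libraries, grouped by their labels. As the authors deposited them, the values are whole-number counts of reads for each Ensembl gene identifier, not normalised. The submitters' processing notes name GRCm38 (mm10), R 4.0.3 and limma. The aligner, the counter, its strand setting and the annotation are not given in the sources used here. Of 47643 gene rows, 47224 matched a symbol.

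Genes were kept by filterByExpr (minimum count 10, total 15), scaled by TMM and fitted over all 4 eWAT groups with edgeR 4.0.16 (quasi-likelihood test, Benjamini-Hochberg adjustment, R 4.3.3). The diet effect under Cort, that under Veh and their difference were tested, and genes were called at an adjusted p under 0.05. Where nothing says that libraries are separate mice, p-values measure only the spread between libraries. Alternatives were RLE factors, library totals, DESeq2 1.42.0, limma 3.58.1 (voom), no filter, only the 2 groups compared, a replicate block and leaving out each library. The scripts were tested on simulated counts with a smaller spread between libraries than was estimated here, so that test gives no error rates for these data. Depth was 9794683 to 15906959 counts per Cort library, so genes of few counts carry wide errors.

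Genes were named by a fixed rule, the 12 called genes not set aside with the smallest p in each direction, up to 5 of each list with the smallest p, Nr3c1, Fgf21 and Gcgr, and the other called genes. Acly, Adipoq, Fabp4, Ifi44, Lep, Pck1, Chpt1 and Timp4 were chosen after their values were seen. Of 931 list entries 926 matched, and the lists and marker sums kept the genes that were set aside. The members, the 28 pathway and 13 marker lists and the rules were chosen with earlier results of these data known, and called genes were put into groups after their values were seen. Promoter windows and sequences came from RefSeq. Some called genes are counted but not reported here by name.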

Additional observations from a re-analysis of the deposited data

Results flagged for a closer look

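Dixon's test at the 95% level was run on 196 groups of 4 libraries and singled out 6, where chance alone gives about 1 in 20. Of these, 2 were in Cort HPD 4 or concern its tissue: the epididymis and testis markers summed to 16037 CPM against 2.02 to 13.7 CPM in the other Cort HPD mice, and Fabp5 was at 64.4 CPM against 82.0 to 83.9 CPM. In Cort HPD 2, Pkm was at 195 CPM against 183 to 185 CPM, and Serping1, the complement C1 inhibitor, at 436 CPM against 519 to 532 CPM. In Cort NPD 3, Slc25a20 was at 84.2 CPM against 66.4 to 68.7 CPM. In Cort NPD 4 the adipocyte markers summed to 35396 CPM against 42831 to 43435 CPM.

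For 2 genes the diet effect differed between Cort and Veh by the interaction term. H2-Ab1 differed by 1.40 on the log2 scale (SE 0.23, edgeR adjusted p = 0.0237) and Syn2 by -1.28 (SE 0.22, edgeR adjusted p = 0.0335). The part of the overlapping gene Timp4 in the Syn2 counts was not tested.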

How the results depend on the processing

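Against 74 genes called under Cort (31 higher, 43 lower), DESeq2 called 195 (89 and 106), a fit of the 8 Cort libraries alone 165 (57 and 108) and limma voom 69 (20 and 49). RLE factors gave 75, library totals 73, no filter 86 and removal of the genes high in Cort HPD 4 alone 73. DESeq2 called all 74 and voom missed 18, of which 13 were higher. Leaving out 1 library gave 26 to 124 calls, 14 to 43 higher and 12 to 81 lower. Under Veh, where 9 were called, library totals gave 16, DESeq2 126, voom 19, no filter 30 and the Veh libraries alone 4, and leaving out 1 library gave 5 (without Veh NPD 4) to 64 (without Veh HPD 3). The interaction, with 2 calls, gave 0 by library totals (edgeR, 784 genes at an unadjusted p under 0.05) and 0 by voom (814 at that p), 14 by DESeq2, 4 without the filter and 0 to 6 with 1 library left out (edgeR, 720 to 949 at that p). With a replicate block the counts were 67 under Cort, 9 under Veh and 9 for the interaction. The replicate numbers showed no sign of pairing: the 4 Cort pairs correlated at -0.12 to 0.08, and 1 of 8 libraries correlated best with its own number. With 4 pairs, this cannot exclude that mice of the same number were handled together. The cause of the changes in the counts of calls was not tested. Of 1931 values for the 84 named genes under the alternatives, 1630 kept their side of the threshold, 223 lost the call, 187 of them with a library left out, 78 gained one and 0 changed sign. Of 943 list medians 26 moved by more than the SD between mice and 42 changed sign, most often those of the hepatocyte and lymphocyte markers. At 3 or 10 times in place of 5, 444 or 217 genes were set aside.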
